A study of Mus musculus with 6 samples.

Results

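The microRNA (miRNA) pair miR-221-3p and miR-222-3p (mmu-miR-221-3p and mmu-miR-222-3p in the table), 2 of the 707 names in a table of miRNA counts, was described in exosomes released by bone marrow-derived macrophages. The members were taken by name, as a pair made from a shared transcript with a shared seed. Exosomes are small vesicles that cells release into the medium. The libraries came from supernatants of macrophages with the Roquin-1 san:san genotype (3 libraries) and of WT macrophages (3 libraries), both on the C57BL/6 strain. Roquin-1 binds stem-loops in messenger RNAs and speeds their decay, and san:san stands for 2 copies of the sanroque allele. The labels give no age, sex or stimulus, and do not say whether a library came from a single mouse, a pool or repeated cultures, so p-values here reflect only how these libraries vary, and part of that may be technical.

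miR-221 and miR-222 are excised from the 3' arms of neighbouring X-linked hairpins and repress largely the same targets, because target choice depends mostly on the seed, bases 2 to 8 of the miRNA. Known targets are the cell-cycle inhibitor Cdkn1b (p27) and the receptor Kit. In mouse macrophages the pair is induced by prolonged lipopolysaccharide and represses the chromatin remodeller Brg1 during endotoxin tolerance, and in vessels it acts on smooth muscle and endothelial growth.

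The mature sequences are shown because they establish what the counts can tell apart. Capitals mark the seed, and sequences and positions are those of RefSeq on GRCm38.p6.
miR-221-3p: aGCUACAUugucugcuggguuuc
miR-222-3p: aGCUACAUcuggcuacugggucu
miR-1928: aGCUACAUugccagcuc
The members share their first 8 bases and then part, with U9C as the first substitution, counted from 1 at the 5' end (miR-221-3p base first). Compared position by position, 11 of 23 bases were the same. A read of full length therefore separates them, and no other row of the table had counts identical to either in all 6 libraries. RefSeq lists 3 mouse miRNAs with this seed, of which miR-1928, from chromosome 1, was not among the names in the table.

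The hairpins are shown with the 3p miRNA in capitals.
Mir222: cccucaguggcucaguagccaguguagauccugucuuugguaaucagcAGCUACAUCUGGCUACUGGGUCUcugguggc
Mir221: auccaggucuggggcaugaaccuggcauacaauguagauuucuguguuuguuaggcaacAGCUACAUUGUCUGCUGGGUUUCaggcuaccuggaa
Both lie on the minus strand of chromosome X, Mir222 at positions 19146893 to 19146971 and Mir221 at 19146294 to 19146388, so that Mir222 comes first in the direction of transcription. They are 504 bases apart, and no other RefSeq gene overlaps them or the stretch between. The nearest annotated gene upstream is the long non-coding RNA Gm14636, 9499 bases from Mir222.

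Every san:san library was deeper than every WT library, with totals of 185901, 160588 and 126098 miRNA counts in san:san and 12447, 28884 and 21754 in WT. In CPM (counts brought to the same library total), 1 count stood for 5.38 to 7.93 in san:san and for 34.6 to 80.3 in WT. The miRNAs miR-223-3p, miR-142a-3p, miR-142a-5p and miR-21a-5p, taken as myeloid markers, were all detected, at 7.83% to 9.86% of counts in san:san and 3.39% to 4.28% in WT. They are not particular to myeloid cells, as miR-21a-5p is also listed below as vascular and miR-142a-3p is made in most blood cells. Erythroid markers made up 10.3% to 11.9% of counts in san:san and 2.68% to 4.59% in WT. Whether a difference comes from the cells that released vesicles, from the RNA loaded per vesicle or from another source cannot be told apart in such bulk samples.

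miR-221-3p was the more abundant member in every library. It had 1392, 1105 and 980 counts in the san:san libraries, against 130, 498 and 312 in the WT libraries. By abundance it ranked 27th, 28th and 25th in san:san and 22nd, 13th and 20th in WT. Scaled by the trimmed mean of M values (TMM, which sets libraries to the bulk of their miRNAs), its level was 8778, 8313 and 10038 CPM in san:san, against 9040, 13820 and 11300 CPM in WT. The genotypes overlapped, since WT replicate 1 lay among the san:san libraries and the other WT libraries lay above them. The means were 9043 ± 892 CPM in san:san and 11387 ± 2391 CPM in WT (SD, n = 3 each). The log2 fold change was -0.34 ± 0.21 (SE), a 1.27-fold lower level in san:san that did not pass edgeR's quasi-likelihood test (adjusted p = 0.164).

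miR-222-3p was the scarcer member, and its fold change had the other sign. It had 311, 239 and 170 counts in san:san, against 8, 58 and 25 in WT, and ranked 60th, 68th and 73rd in san:san and 130th, 72nd and 104th in WT. Its TMM-scaled level was 1961, 1798 and 1741 CPM in san:san, against 556, 1610 and 905 CPM in WT. All san:san libraries were above all WT libraries, and WT replicate 2 came close to them. The WT spread exceeded counting error, as the exact 95% interval of the unscaled level ran from 277 to 1266 CPM in WT replicate 1 and from 1525 to 2596 CPM in WT replicate 2. Intervals of this kind cover counting error only. The means were 1833 ± 114 CPM in san:san and 1024 ± 537 CPM in WT (SD, n = 3 each).

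miR-222-3p rose 1.65-fold in san:san (log2 0.73 ± 0.28, SE, edgeR adjusted p = 0.0383). Such calls were common in these libraries, in which 64.2% of the 254 tested miRNAs passed, 34.6% as higher and 29.5% as lower. By p-value miR-222-3p ranked 157th of the 254. Levels stood apart between genotypes, as for miR-222-3p, for 70.9% of tested miRNAs, 39.8% with san:san higher and 31.1% with san:san lower. The call did not hold without san:san replicate 1 (adjusted p = 0.0888), san:san replicate 3 (0.0721), WT replicate 1 (log2 0.43, 0.134) or WT replicate 3 (0.113), while without WT replicate 2 the fold change was log2 1.15 (0.00982). In contrast, miR-221-3p passed as lower without WT replicate 1 (log2 -0.57, adjusted p = 0.00675). The summed counts of both members had a log2 fold change of -0.21 ± 0.21 (adjusted p = 0.393), which passed as lower without WT replicate 1 (-0.45, 0.0301).

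**Figure D1:**
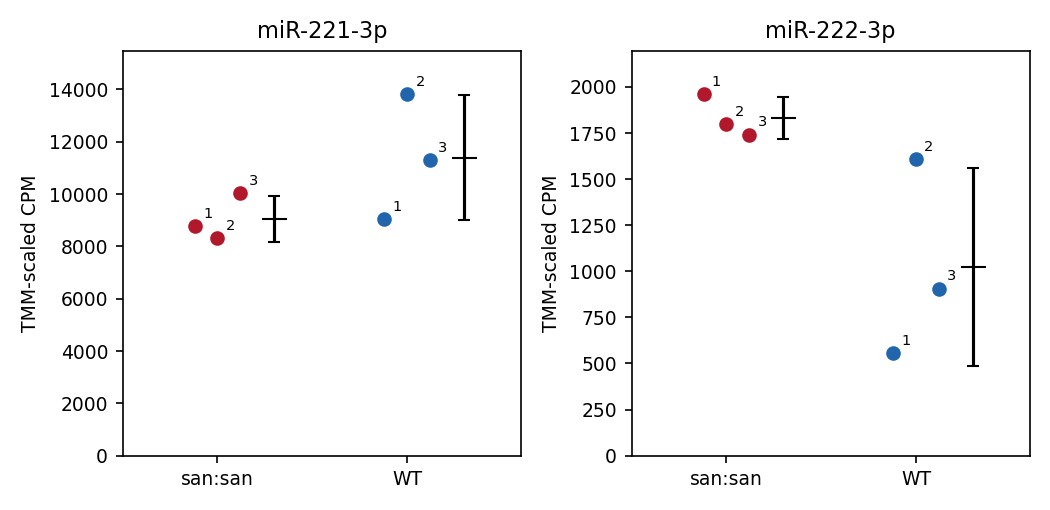
TMM-scaled CPM (vertical axes, from 0) of miR-221-3p and miR-222-3p in each san:san library and each WT library, numbered by replicate, with the mean and SD of 3 libraries beside them. For miR-221-3p WT replicate 1 falls among the san:san libraries, and for miR-222-3p the san:san libraries, at 1741 to 1961 CPM, are all above the WT libraries.

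The ratio of miR-221-3p to miR-222-3p within a library needs no scaling, because both counts come from the same reads. It was 4.48, 4.62 and 5.76 in the san:san libraries, against 16.3, 8.59 and 12.5 in the WT libraries. Every san:san library thus lay below every WT library. The mean log2 ratio was 2.30 ± 0.20 in san:san and 3.59 ± 0.46 in WT (SD, n = 3 each), a difference of -1.29, or a 2.44-fold lower ratio in san:san. With 3 against 3 libraries the two-sided exact permutation test gave p = 0.1, the smallest it allows.

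Expressed as a share of the pair's counts, miR-221-3p was 81.7%, 82.2% and 85.2% in san:san, against 94.2%, 89.6% and 92.6% in WT. The exact 95% binomial interval of the san:san library nearest to WT, replicate 3, was 83.03% to 87.22%, and that of the WT library nearest to san:san, replicate 2, was 86.72% to 91.98%, so these overlapped slightly. Pooled over the libraries of a genotype the share was 82.8% (81.7% to 84.0%) in san:san and 91.2% (89.3% to 92.8%) in WT. These pooled intervals count reads and leave out the spread between libraries, so they do not compare the genotypes. WT replicate 1 carried only 8 counts of miR-222-3p, which allows a ratio anywhere between 8.01 and 38.4. Without that library the difference in mean log2 ratio was -1.07, and without WT replicate 2 it was -1.53.

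Because 3 libraries a genotype cannot pass a permutation test at 0.05, the ratio was also tested in edgeR with every library scaled to its miR-222-3p count, so that the fold change of miR-221-3p is that of the ratio. The log2 fold change was -1.32 ± 0.57 (SE), with an unadjusted p of 0.0198 in the quasi-likelihood test and an adjusted p of 0.0502 over 253 miRNAs, which did not pass. The fit takes the miR-222-3p counts as exact, although WT replicate 1 held 8 and WT replicate 3 held 25. Their counting error thus enters every row, and the adjusted p also depends on the other miRNAs. On this scale 39.1% of miRNAs passed, 35.2% downward and 3.95% upward as shares of those tested. The test passed without WT replicate 1 (-1.08, adjusted p = 0.0132) and without WT replicate 2 (-1.53, adjusted p = 6.58e-04). The adjusted p was between 0.121 and 0.222 with any other library left out.

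The ratio was also ordered by depth. Ordered by total counts, from 185901 down to 12447, the libraries had ratios of 4.48, 4.62, 5.76, 8.59, 12.5 and 16.3, so that each shallower library had a higher ratio than the next deeper library, within genotypes as well as between them. This order was noticed after the values were seen. Whether the order within genotypes exceeded counting error was not tested, and overlap of intervals does not settle it. The exact 95% intervals of the ratio overlapped within each genotype, though only slightly between san:san replicates 1 and 3. In san:san they were 3.96 to 5.08, 4.02 to 5.34 and 4.89 to 6.82 for replicates 1, 2 and 3. In WT they were 8.01 to 38.4, 6.53 to 11.5 and 8.30 to 19.6 for replicates 1, 2 and 3. When all libraries were thinned at random to 12447 counts, the median ratios over 20 draws were 4.22, 4.84 and 5.46 in san:san and 16.3, 9.17 and 13.1 in WT, and the difference in mean log2 ratio was -1.27. Random thinning leaves the expected ratio of a library as it is, so these values show only the sampling noise at that depth. Whether the difference belongs to the genotype or to whatever set the depth of the libraries cannot be told apart, since the genotypes did not share a range of depth.

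**Figure D2:**
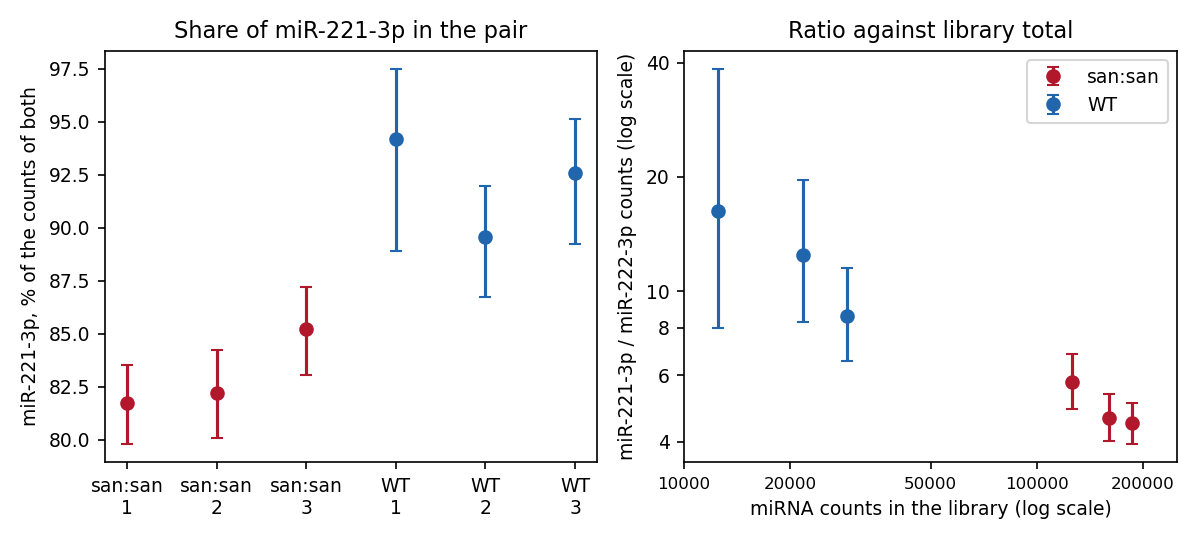
Left, miR-221-3p as a percentage of the counts of both members in each san:san library and each WT library, with exact 95% binomial intervals (the axis does not start at 0). Right, the ratio of miR-221-3p to miR-222-3p counts against the library total, both on log axes, where the deepest library (san:san replicate 1) has a ratio of 4.48 and the shallowest (WT replicate 1) a ratio of 16.3.

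The level of each member depended on how libraries were set to a common scale. A change of scale shifts all fold changes about equally, so the distances between the members and from the median could hardly change. The median log2 fold change of all 254 tested miRNAs was 0.30 with TMM, 0.04 with the relative log expression (RLE) factors and -0.29 with total counts. Against these medians miR-221-3p stood 0.64 below in each case (-0.64, -0.64 and -0.64) and miR-222-3p stood above by 0.43, 0.44 and 0.42. As a result miR-221-3p passed as lower with RLE factors (log2 -0.60, adjusted p = 0.0210) and with total counts (-0.93, 0.00171), and miR-222-3p then did not pass (0.48, adjusted p = 0.142, and 0.13, adjusted p = 0.724). The call of miR-222-3p also ended with TMMwsp scaling (edgeR adjusted p = 0.0695), DESeq2 (0.168), totals that left out the 5 most abundant names (0.162) and thinning (0.178), and with the last 3 miR-221-3p passed as lower. As plain shares of all counts, miR-221-3p made up 0.738% ± 0.0455 in san:san and 1.40% ± 0.341 in WT without overlap, and miR-222-3p made up 0.150% ± 0.0163 in san:san and 0.127% ± 0.0690 in WT with overlap (SD, n = 3 each). The exact permutation p was 0.1, the smallest possible, for miR-221-3p and 0.6 for miR-222-3p. In none of the 15 alternatives did the fold change of either member change sign.

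**Figure D3:**
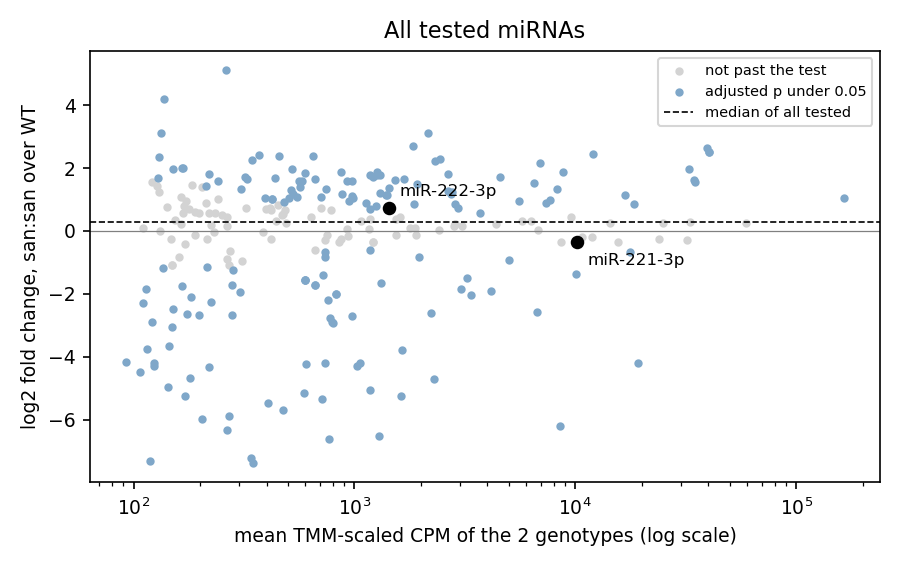
Log2 fold change (san:san over WT) against mean TMM-scaled CPM (log axis) for the 254 tested miRNAs, with those at an adjusted p under 0.05 in blue, the others in grey and both members in black. The dashed line is the median of all tested miRNAs, 0.30, and the members lie close to it on either side, at -0.34 and 0.73.

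**Figure D4:**
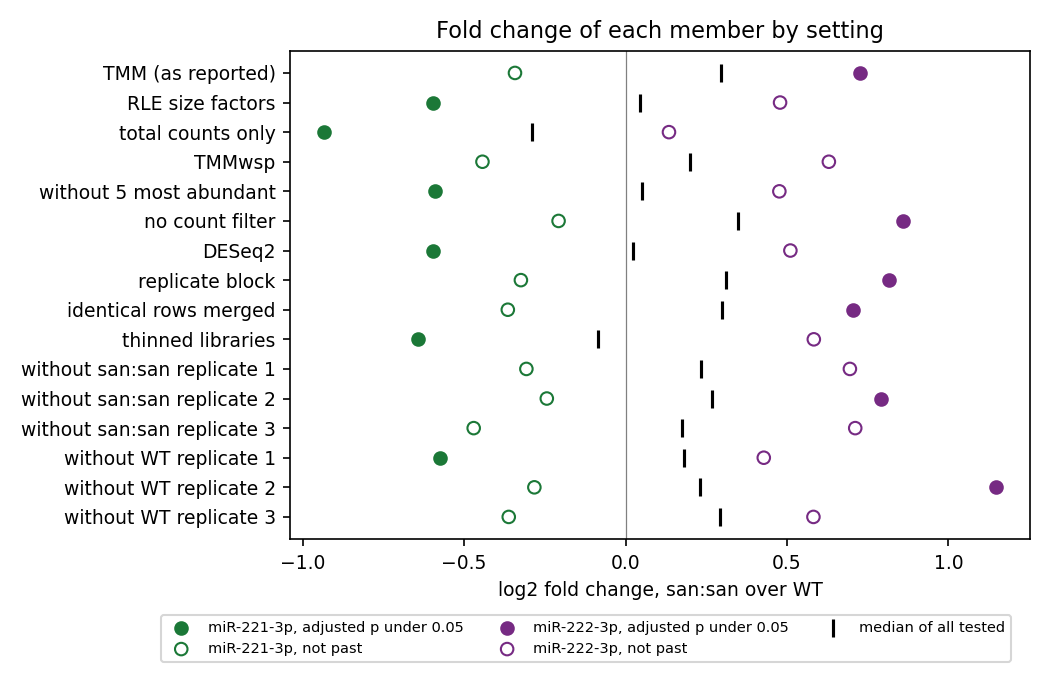
Log2 fold change (san:san over WT) of miR-221-3p and miR-222-3p under each scaling, filter or test and with each library left out, filled where the adjusted p was under 0.05. The black ticks are the median of all tested miRNAs, which lies between the members under every setting shown.

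The 5p arms of both hairpins, the strands that are mostly discarded, were close to the detection limit. miR-221-5p had 2, 2 and 2 counts in san:san and 0, 0 and 1 in WT, and miR-222-5p had 4, 7 and 8 in san:san and 1, 1 and 0 in WT. Neither passed the filter on low counts. Over the pooled libraries the 5p share of the miR-221 hairpin was 0.172% in san:san (exact 95% interval 0.0632% to 0.375%) and 0.106% in WT (0.00269% to 0.591%). That of the miR-222 hairpin was 2.57% in san:san (1.55% to 3.99%) and 2.15% in WT (0.262% to 7.55%). The intervals of the genotypes overlapped for both hairpins, so a difference in arm use was not detectable at this depth. The 3p arm was thus the main product of both hairpins in both genotypes.

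Other miRNAs made from shared transcripts give a measure of how far such ratios moved. Of 29 listed pairs, 14 had at least 5 counts of each partner in every library, a minimum set after the table was seen. Some partners, such as let-7f-5p and miR-29b-3p, are also made from a further locus, so that their ratios mix transcripts. Their absolute change in mean log2 ratio ran from 0.25 to 2.82 with a median of 0.48, and the change of the miR-221-3p to miR-222-3p ratio, 1.29, ranked 3rd of the 15. Genotypes stood apart for 8 of the 14 other pairs (57.1%), so a ratio without overlap was common here. They stood apart with the ratio lower in san:san for 35.7%, but the sign depends on which partner was written first. Some partners, such as miR-27a-3p and miR-125a-5p, occur in several pairs, so the pairs are not independent. The ratio of miR-532-5p to miR-188-5p, from another X-linked cluster, was higher in san:san by 2.82. That of miR-19a-3p to miR-17-5p, from a growth-promoting cluster, was higher by 1.29, nearly the size of the change for the miR-221-3p to miR-222-3p ratio. The smallest were -0.25 for miR-99b-5p over miR-125a-5p and -0.26 for miR-143-3p over miR-145a-5p. None of the 14 (0) was ordered with or against depth over all 6 libraries as the miR-221-3p to miR-222-3p ratio was. Whether the order of that ratio within genotypes exceeded counting error was not tested.

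**Figure D5:**
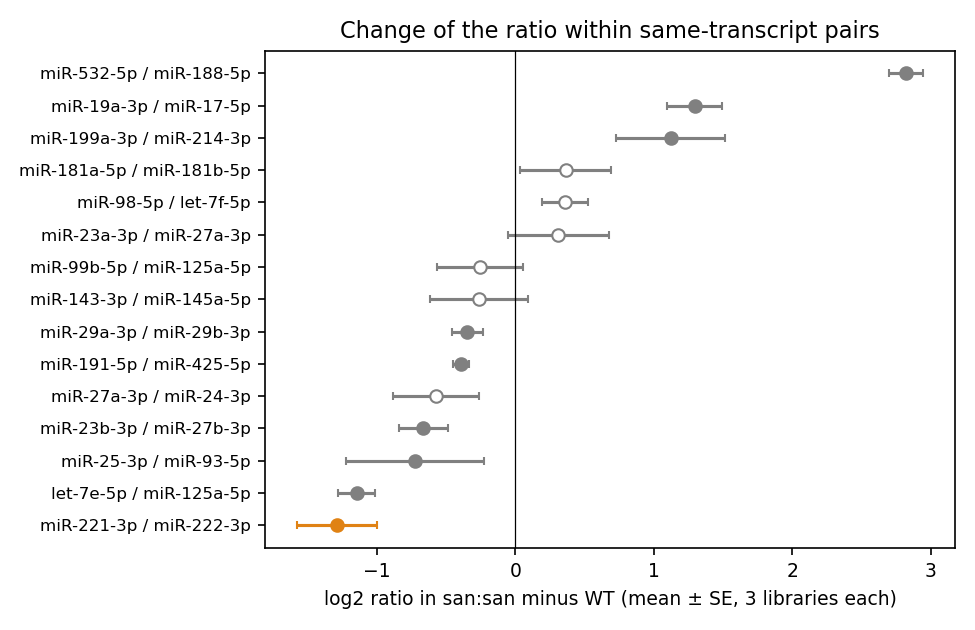
Difference in mean log2 count ratio (san:san minus WT, with its SE from 3 libraries each) for 15 pairs of miRNAs from shared transcripts, filled where no san:san library overlapped a WT library. The miR-221-3p to miR-222-3p ratio, in orange, is at -1.29, which ranks 3rd of the 15 by absolute change. The sign of each value depends on which partner was written first.

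Each member had many miRNAs nearer to it across libraries than its partner was. Likeness was measured as the root mean square difference of log2 CPM, each miRNA centred on its own mean over the 6 libraries, so that library scaling hardly enters it. For miR-221-3p the nearest of 253 others were miR-532-3p (0.16), let-7d-5p (0.17), miR-107-3p (0.17), miR-99b-5p (0.17) and miR-92b-3p (0.20). For miR-222-3p they were miR-300-3p (0.23), miR-140-3p (0.25), miR-26b-5p (0.32), miR-423-3p (0.32) and miR-379-3p (0.35). The difference between the members was 0.69, which placed miR-222-3p 88th in nearness to miR-221-3p and miR-221-3p 91st in nearness to miR-222-3p. Counting error adds to such differences, most of all for miR-222-3p in WT.

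Groups of miRNAs with related roles were counted against the 34.6% of all tested miRNAs called higher and the 29.5% called lower. Of 17 miRNAs tied to Toll-like receptor signalling and tolerance in macrophages, 12 were tested, of which 4 rose, 3 fell and 5 did not pass, with a median log2 fold change of 0.23 against 0.30 over all tested miRNAs. miR-142a-3p, made in most blood cells, rose (log2 2.65 ± 0.33, SE, edgeR adjusted p = 1.12e-05), and miR-125b-5p, which targets tumour necrosis factor mRNA, fell (-1.90 ± 0.20, 2.32e-06), as did miR-9-5p, induced by NF-kB signalling in human monocytes (-4.31 ± 0.50, 5.98e-06). Of 12 vascular miRNAs 10 were tested, 3 rose, none fell and 7 did not pass (median 0.19). Those that rose were miR-126a-3p (2.17) and miR-126a-5p (1.55), made in endothelium, and miR-21a-5p (1.15). With TMM both members stood nearer to 0 than these, a comparison that depends on the scale. Of 17 miRNAs of proliferation and the cell cycle 16 were tested, 8 rose, 1 fell and 7 did not pass (median 0.78), with miR-19a-3p (2.21) and miR-26a-5p (1.95) higher and let-7c-5p, a repressor of growth genes (-1.38), lower. With total counts the numbers higher and lower were 2 and 4 for the first list, 3 and 4 for the vascular list, and 5 and 2 for the proliferation list, against 49 and 101 of all 254.

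The table held 53 other miRNAs whose hairpins all lie on chromosome X, the chromosome of the pair. Of these 20 were tested, 10 rose, 5 fell and 5 did not pass, with a median log2 fold change of 1.00, against 34.6% higher, 29.5% lower and a median of 0.30 over all 254 tested miRNAs. miR-505-3p (1.86) and miR-98-3p (2.37) rose, and miR-188-5p fell (-2.76). With total counts 4 of the 20 were higher and 5 lower, against 49 higher and 101 lower of the 254.

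Markers of several cell types moved with the genotype beside the pair, and their part in its ratio was not tested. Erythroid markers rose for 3 of 4 members, all markers taken as myeloid rose (4 of 4) and both endothelial markers rose, where 34.6% of all tested miRNAs did. The endothelial share was 3.37% to 6.96% in san:san and 1.82% to 3.69% in WT. Of 3 lymphocyte markers only miR-150-5p rose, and their share was 1.51% to 2.05% in san:san and 0.544% to 0.755% in WT. Of 7 stromal and smooth muscle markers, cells in which the pair is also expressed, 3 rose and 1 fell, at 1.09% to 1.17% of counts in san:san and 0.964% to 1.58% in WT. Of 4 liver markers 3 rose, at 0.562% to 0.776% in san:san and 0.584% to 0.786% in WT. With total counts 2 myeloid markers were higher and 0 lower, 1 stromal marker was higher and 2 lower, and 1 liver marker was higher and 0 lower, and the erythroid, endothelial and lymphocyte numbers were the same. The epithelial markers (5, none tested) were at most 0.0127% in san:san and 0.0138% in WT, and the muscle markers (3, none tested) at most 0.00747% in san:san and 0.0312% in WT. No listed marker was at 0 in all libraries.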

How the data were processed

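Small RNA of exosomes from macrophage supernatants was sequenced in 3 san:san and 3 WT samples, grouped and numbered by their titles. Per the labels' protocols, RNA was taken with Trizol and libraries followed standard Illumina miRNA procedures, although the same labels name an mRNA kit. Per the submitters' processing notes, reads were placed on mm9. Aligner, filters and miRNA release were not stated in the sources used here. Whole-number counts per mature miRNA were deposited by the authors, and per sample a scaled signal named TPM in its header, whose sum was larger than TPM values can have. Its implied reads differed from the counts by over 0.1 reads for 1 miRNA in 1 library, and it was used for an alternative only. Columns of other samples numbered 0.

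Counts were tested with edgeR 4.0.16 (R 4.3.3, quasi-likelihood, robust, TMM, filterByExpr minimum count 10, genotype only, Benjamini-Hochberg over 254 miRNAs, threshold 0.05), and DESeq2 1.42.0 was an alternative. The SE of a fold change is its size over the square root of F. The miRNAs kept held 98.2% to 99.3% of counts. Ratios were compared by exact permutation tests and shares by exact binomial intervals (scipy 1.17.1). Tests were tried on simulated data. Sequences are from RefSeq (573 of 707 names matched), whose GRCm38 differs from mm9, so positions are not those of the authors' reads. Named miRNAs were the members, their 5p arms, the same seed, the 5 likest of each member, up to 3 per list by p, and the 2 pairs at each end. Members, lists and rules were chosen with earlier results of these data known. Alternatives were other scalings, no filter, merged rows, thinning, a replicate block and leaving out each library.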

Additional observations from a re-analysis of the deposited data

How the results depend on the processing

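The lower ratio of miR-221-3p to miR-222-3p in san:san had a difference in mean log2 ratio of -1.22 with 1 added to each count, -1.10 with pooled counts and between -1.53 and -1.07 with a library left out. The deposited scaled values (-1.29), thinning (-1.27) and pairing by number cannot move this difference by construction, apart from sampling noise. Calls for single members followed the scaling; for miR-221-3p the log2 fold change passed as lower in 6 of 15 alternatives, at -0.60 with RLE, -0.93 with total counts, -0.59 with library sizes without the 5 most abundant miRNAs, -0.60 with DESeq2 and -0.64 in thinned libraries, and was between -0.57 and -0.24 with a library left out. For miR-222-3p the call was lost in 10 of 15, at 0.48 with RLE, 0.13 with total counts, 0.63 with TMMwsp, 0.48 with library sizes without the 5 most abundant, 0.51 with DESeq2 and 0.58 in thinned libraries, and the value was between 0.43 and 1.15 with a library left out. Without the count filter the call for miR-222-3p held (0.86, edgeR adjusted p = 0.00778). The summed pair passed as lower with total counts (-0.79) and was between -0.45 and -0.11 with a library left out. The difference of the edgeR log2 fold changes of the members was -1.07, and between -1.43 and -0.94 with a library left out. With miR-222-3p as the scale the value was between -1.53 and -1.08 with a library left out, and -1.32 without the filter (adjusted p = 0.0791). The number of miRNAs past the threshold, 163 (64.2% of those tested), was 83 in thinned libraries (62.9% of the fewer tested), 207 (29.3%) without the filter and at most 175 with a library left out. The calls split into 88 higher and 75 lower with TMM, 76 higher and 86 lower with RLE, 73 higher and 85 lower without the 5 most abundant, 64 higher and 82 lower with DESeq2, and 49 higher and 101 lower with total counts. The causes were not tested. The 5p to 3p ratios had 0 counts in some libraries, so the alternatives fixed for them were not run.

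Same-numbered deviations correlated at 0.10, -0.08 and 0.26, the best match for san:san replicates 1 and 3 but not 2. With 3 libraries a genotype this cannot settle pairing. With the replicate block 161 miRNAs passed, miR-221-3p was at -0.32 (adjusted p = 0.125), miR-222-3p at 0.82 (0.0256), the sum at -0.18 (0.382) and the ratio with miR-222-3p as the scale at -1.28 (0.120). The paired difference in log2 ratio was -1.29 (exact sign-flip p = 0.25, the smallest that 3 pairs allow). Depth limits the ratio through miR-222-3p, of which WT replicate 1 held 8 counts, and the 5p arms, with 0 or 1 counts in each WT library.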
